A study of Mus musculus with 6 samples.

Results

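Irf genes (interferon regulatory factors) and Stat genes (signal transducers and activators of transcription) encode transcription factors that carry interferon and cytokine signals to the genome. The members described here are 8 genes of these families, Irf1, Irf2, Irf3, Irf7, Irf8, Irf9, Stat2 and Stat3, taken by gene symbol from the 18158 features of the deposited table, and all 8 were found. RNA was sequenced from ventricles of 6 CD1 mice, an outbred stock, that were 3 months old. The 3 vehicle mice received injections of PBS every day for 14 days, and the 3 treated mice received the aminoglycoside antibiotics paromomycin and neomycin (Paro/Neo) for the same 14 days, at 150 mg/kg, 2 times a day, into the peritoneal cavity. The labels describe the 3 hearts of each group as biological triplicates and give no genotype or sex. The series was built around approved drugs and regeneration of the heart, and the comparison made here is Paro/Neo against vehicle.

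In the textbook scheme, receptors that sense nucleic acids lead to phosphorylation of Irf3, which many cells hold ready, and of Irf7, whose own transcription is raised by interferon, and the pair then switch on interferon genes. Type I interferon acts through its receptor and Jak kinases to form ISGF3, a complex that holds Stat2 and Irf9 and binds interferon-stimulated response elements (ISRE). Interferon gamma instead acts through gamma-activated sites (GAS) and induces Irf1, Irf2 competes with Irf1 for its sites, Irf8 belongs to myeloid cells, and Stat3 answers cytokines of the interleukin-6 family and guards cardiomyocytes.

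To show what stands upstream of the members, the promoter stretch of the gene that passed the test, Irf7, is printed beside those of 3 members in which an ISRE or GAS core was matched. The sequences are from RefSeq (GRCm38.p6), 5' to 3' on the gene's strand, ending at the start site or at the first annotated exon, and capitals mark matches. The Irf7 stretch is chr7:141266482-141266674 (minus strand), that of Stat2 is chr10:128270248-128270497, that of Irf1 is chr11:53769764-53770013 and that of Irf8 is chr8:120736108-120736357, the last 3 on the plus strand.
Irf7: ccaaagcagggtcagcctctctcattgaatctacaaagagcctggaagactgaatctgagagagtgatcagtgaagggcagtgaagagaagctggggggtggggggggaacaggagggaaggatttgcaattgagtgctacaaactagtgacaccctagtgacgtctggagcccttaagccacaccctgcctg
Stat2: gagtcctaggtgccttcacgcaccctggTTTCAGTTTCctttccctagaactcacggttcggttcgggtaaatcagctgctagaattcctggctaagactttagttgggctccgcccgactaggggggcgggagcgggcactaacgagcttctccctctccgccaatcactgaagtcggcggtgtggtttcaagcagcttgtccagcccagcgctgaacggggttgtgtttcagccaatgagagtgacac
Irf1: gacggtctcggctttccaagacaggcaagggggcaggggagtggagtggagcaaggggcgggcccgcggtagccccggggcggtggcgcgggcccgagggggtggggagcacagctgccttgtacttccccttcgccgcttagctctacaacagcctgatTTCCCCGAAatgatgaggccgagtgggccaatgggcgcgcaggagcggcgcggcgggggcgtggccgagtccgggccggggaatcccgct
Irf8: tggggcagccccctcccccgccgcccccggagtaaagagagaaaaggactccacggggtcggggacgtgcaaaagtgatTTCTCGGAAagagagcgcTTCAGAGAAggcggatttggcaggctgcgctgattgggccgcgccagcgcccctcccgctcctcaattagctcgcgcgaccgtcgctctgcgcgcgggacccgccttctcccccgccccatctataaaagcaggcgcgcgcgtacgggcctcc

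Both strands of the 250 bases before each start were searched for the ISRE core GAAANNGAAA and the GAS core TTCNNNGAA, where N is any base. The ISRE core was in 978 of 32851 mouse promoter windows of that length (2.98%) and the GAS core in 2306 (7.02%). The Stat2 window held 1 ISRE core, on the reverse strand and so printed as its complement, 222 to 213 bases before the start. The Irf1 window held 1 GAS core, 90 to 82 bases before the start, and the Irf8 window held 2, at 171 to 163 and 153 to 145 bases. In Irf2 an ISRE core (241 to 232 bases before the start) and a GAS core (224 to 216 bases) lay close together, printed here with 6 flanking bases on each side, at chr8:46739498-46739519 and chr8:46739515-46739535.
Irf2 ISRE core: ggaagtGAAAATGAAAttgact
Irf2 GAS core: tgacttTTCCGAGAAatgatg

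Neither core was matched in the windows of Irf3, Irf7, Irf9 or Stat3, nor in the second windows listed for Irf1 and Irf8. The Irf9 windows, chr14:55603735-55603984 and chr14:55604329-55604578, precede RefSeq starts but lie inside the GENCODE span of the gene. The bases before the GENCODE start of Irf9, at 55603571, were therefore not searched. A match is a run of letters, and neither a match nor its lack says whether a factor bound there.

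Irf7 transcripts were 5.32-fold higher in Paro/Neo hearts and it was the member that passed the test. Irf9 (2.60-fold) and Stat2 (1.96-fold), which encode subunits of ISGF3, were each higher in all 3 treated hearts than in any vehicle heart, and neither passed after adjustment over all features. Irf3, the partner of Irf7, was at 0.976 of the vehicle level, and Irf1, Irf2 and Stat3 overlapped between the groups. The levels are in TPM, a share of each library's transcripts that accounts for gene length and is scaled to the same total everywhere, and changes are differences of mean log2(TPM + 1), which understate folds of low genes. The test was limma across the 12409 features that reached 1 TPM in 3 or more of the 6 libraries, with Benjamini-Hochberg adjustment over all of them and a threshold of 0.05.

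All 8 members were tested, and 6 were higher and 2 lower. Of the 8, 1 passed the threshold upward, against 15 of all 12409 features (0.121%), and 0 passed downward by limma, against 2 (0.0161%). At an unadjusted p under 0.05, 3 members were higher (Irf7, Irf9 and Stat2; 3.24% of all features) and 0 were lower (4.37% of all). In 4 members (Irf7, Irf8, Irf9 and Stat2) the lowest treated heart was above the highest vehicle heart, as in 6.04% of all features, and in 0 the groups were separate downward, as in 8.22% of all. The median log2 change was 0.34 over the members and -0.02 over all features, with 46.3% of all features higher. Without Paro/Neo replicate 3 the members' median was 0.155, and without Paro/Neo replicate 1 it was 0.46. In the latter fit 5 members, and 905 of all 12409 features, were at an unadjusted p under 0.05 by limma, in either direction.

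**Figure D1:**
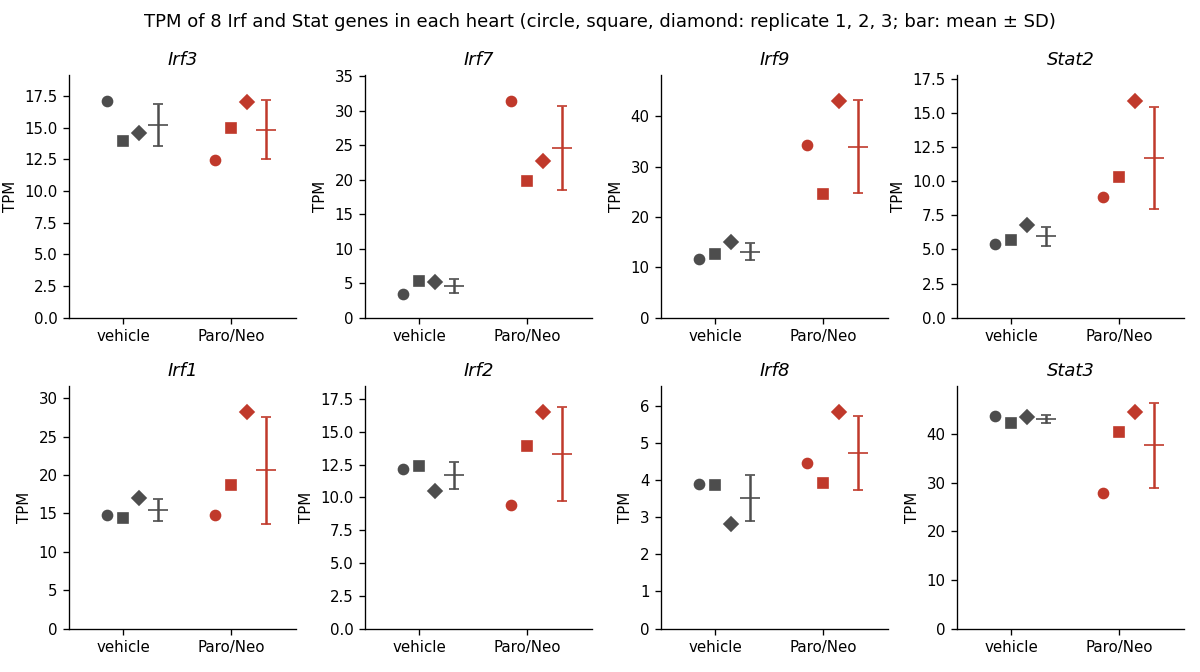
TPM of the 8 members (vertical axis, from 0, scaled per gene) in vehicle and Paro/Neo hearts, with replicates 1, 2 and 3 as circle, square and diamond and the bar giving mean ± SD of 3 hearts. Irf7 lies at 3.48 to 5.26 TPM in vehicle and 19.8 to 31.5 TPM in Paro/Neo hearts, and in the other 7 panels the diamond of Paro/Neo replicate 3 is the highest treated point.

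Depth and library quality bear on these values. TPM values were read as whole multiples of 1 read in 17574 of 17574 features above 0 (within 0.001 read), of which 14330 were above 0 in all libraries. For a feature above 0 in 1 library, or in no more than a pair of libraries, this outcome is fixed by the method. The multiples gave at least 9556387 to 15969980 assigned reads per library, the deepest and the shallowest both vehicle. Between 15513 and 15972 features were above 0 in a library. Paro/Neo replicate 1 stood apart, with a mean correlation across genes with the other libraries of 0.9755 against 0.9814 to 0.9853, and a position of 36.3 on the first principal component against -16.3 to 3.24. Its part in the results below was measured by leaving it out.

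Irf7 encodes the interferon-induced regulator of type I interferon genes and lies at chr7:141262706-141266481 on the minus strand (GRCm38, GENCODE M21). It was at 3.48, 5.26 and 5.14 TPM in vehicle replicates 1, 2 and 3 and at 31.5, 19.8 and 22.7 TPM in Paro/Neo replicates 1, 2 and 3. The lowest treated heart was thus 14.5 TPM above the highest vehicle heart. Means were 4.63 TPM ± 0.994 and 24.6 TPM ± 6.08 (SD, n = 3 each), and the log2 change was 2.18 (SE 0.20, 95% interval 1.72 to 2.64, adjusted p = 0.0136 by limma). These values rest on 47 to 67 inferred reads per vehicle library and 246 to 473 per treated library. Without Paro/Neo replicate 1 the log2 change was 1.99 and the adjusted p 0.0377 over the same features. Where the filter on low values was applied anew with that library left out, which kept 12293 features, the adjusted p was 0.0504, and without any filter over all 6 libraries (18158 features) it was 0.169. Leaving out vehicle replicate 1 or Paro/Neo replicate 3 with the filter anew gave 0.0557 and 0.0621.

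Irf3, at chr7:44997648-45002848 on the plus strand, encodes the constitutive regulator that acts with Irf7. Its vehicle values were 17.1, 13.9 and 14.6 TPM and its Paro/Neo values 12.5, 15.02 and 17.1 TPM, so the groups overlapped over nearly their whole range. The log2 change was -0.04 (SE 0.14, 95% interval -0.36 to 0.29, adjusted p = 0.956 by limma). The annotated span of Bcl2l12, a gene on the other strand, shares 1065 bases with that of Irf3, introns included. The strand setting of the authors' counting is not given in the sources used here. Within a heart, Irf7 was at 0.203, 0.378 and 0.353 of the Irf3 level in vehicle replicates 1, 2 and 3, and at 2.52, 1.32 and 1.33 times that level in Paro/Neo replicates 1, 2 and 3. The order of the 2 genes was therefore opposite in every heart of the 2 groups.

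Irf9 is the DNA-binding subunit of ISGF3 and lies at chr14:55603571-55610030 on the plus strand. It was at 11.7, 12.6 and 14.98 TPM in the vehicle hearts and 34.2, 24.6 and 43.1 TPM in the Paro/Neo hearts, with no overlap. Means were 13.1 TPM ± 1.71 and 33.97 TPM ± 9.23 (SD, n = 3 each), and the log2 change was 1.28 (SE 0.20, 95% interval 0.83 to 1.74, adjusted p = 0.0793 by limma). It was rank 29 of 12409 features by p, and counts of 198 to 257 reads in vehicle and 443 to 750 in treated libraries stood behind it. The adjusted p was 0.027 without Paro/Neo replicate 2, the lowest treated heart for Irf9, and 0.104 to 0.289 without any 1 of the other 5 libraries (limma, same features). The annotated span of Rnf31, on the same strand, shares 123 bases with that of Irf9, introns included. Rnf31 averaged 4.11 TPM under vehicle and 5.08 TPM under Paro/Neo.

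Stat2 encodes the ISGF3 subunit that carries the activation domain and lies at chr10:128270559-128292849 on the plus strand. Its values were 5.42, 5.68 and 6.76 TPM in vehicle hearts and 8.83, 10.3 and 15.9 TPM in Paro/Neo hearts. The groups did not overlap, and replicate 1 was the lowest treated heart, where for Irf7 it was the highest. Means were 5.95 TPM ± 0.71 and 11.7 TPM ± 3.71 (SD, n = 3 each), and the log2 change was 0.83 (SE 0.20, 95% interval 0.37 to 1.30, adjusted p = 0.299 by limma). Replicate 3 was the highest treated heart for both Irf9 and Stat2.

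Irf1, which encodes an activator induced by interferon gamma, lies at chr11:53770014-53778374 on the plus strand. It was at 14.8, 14.5 and 17.1 TPM in vehicle hearts and at 14.8, 18.8 and 28.3 TPM in Paro/Neo hearts. Replicate 1 of the treated group was within the vehicle range and replicates 2 and 3 above it. The log2 change was 0.35 (SE 0.21, 95% interval -0.14 to 0.84, adjusted p = 0.732 by limma), and leaving out Paro/Neo replicate 3 or 1 gave 0.11 or 0.55.

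Irf2, at chr8:46739732-46847458 on the plus strand, encodes the factor that competes with Irf1 and is itself mostly a repressor of interferon-responsive genes. It was at 12.1, 12.4 and 10.5 TPM in vehicle hearts and at 9.46, 13.9 and 16.5 TPM in Paro/Neo hearts, which surround the vehicle values. The log2 change was 0.14 (SE 0.19, 95% interval -0.29 to 0.58, adjusted p = 0.854 by limma) and turned to -0.02 without Paro/Neo replicate 3. Without Paro/Neo replicate 1, the remaining treated hearts lay above all vehicle hearts for both Irf1 and Irf2, which brought the members with separate groups to 6 of 8, against 10.7% of all features with those 5 libraries. The Irf1 to Irf2 ratio of TPM was 1.22, 1.17 and 1.63 in vehicle and 1.56, 1.35 and 1.71 in Paro/Neo hearts, ranges that overlap.

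Irf8, at chr8:120736358-120756694 on the plus strand, encodes a factor needed for monocytes, dendritic cells and B cells, and it was the lowest of the 8 members. It was at 3.89, 3.87 and 2.81 TPM in vehicle hearts and at 4.46, 3.91 and 5.84 TPM in Paro/Neo hearts. The groups were separate by 0.0229 TPM, between vehicle replicate 1 and Paro/Neo replicate 2, a gap that 39 to 107 reads per library cannot resolve. The log2 change was 0.34 (SE 0.17, 95% interval -0.06 to 0.74, adjusted p = 0.699 by limma), and 0.21 without Paro/Neo replicate 3 or 0.22 without vehicle replicate 3. The annotated span of Gm20388, a protein-coding gene on the same strand, shares 20337 bases with that of Irf8, introns included. Gm20388 is not among the deposited features, and its effect on the reads assigned to Irf8 was not tested. In bulk tissue, a difference in the number of cells of a type and a difference in RNA per cell cannot be told apart.

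Stat3, at chr11:100885098-100939540 on the minus strand, was the most abundant member. Vehicle hearts held it within 42.2 to 43.7 TPM, and Paro/Neo hearts at 27.9, 40.4 and 44.6 TPM. The lower treated mean (37.6 TPM ± 8.67 against 43.1 TPM ± 0.79, SD, n = 3 each) came from replicate 1, the library that stood apart. The log2 change was -0.22 (SE 0.17, 95% interval -0.60 to 0.17, adjusted p = 0.774 by limma), -0.02 without that library and -0.35 without Paro/Neo replicate 3.

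Of the further Irf and Stat genes, 6 are described here and 4 of them were tested, of which 0 passed by limma, 0 also at an unadjusted p under 0.05. Stat6, which answers interleukin-4, averaged 24.7 TPM in the vehicle group and 21.2 TPM in the treated group (adjusted p = 0.708), and Irf5, a myeloid regulator, averaged 1.99 and 2.53 TPM (adjusted p = 0.732). In the same order, Stat5a averaged 6.39 and 5.31 TPM and Stat5b 18.3 and 18.6 TPM. Irf4 (0.677 and 0.909 TPM) and Stat4 (0.183 and 0.28 TPM) were below the filter on low values and were not tested.

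**Figure D2:**
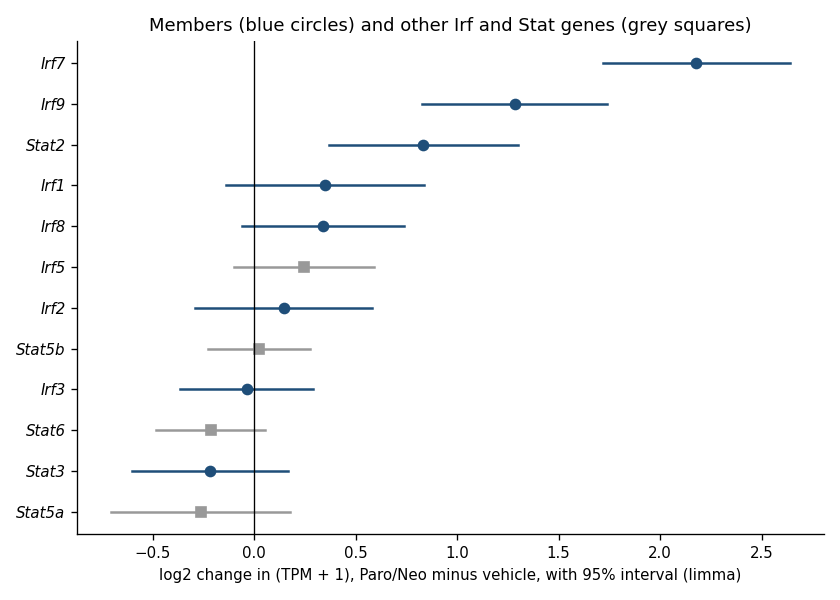
Log2 change in TPM + 1, Paro/Neo minus vehicle (horizontal axis), with the 95% interval from limma, for the 8 members (blue circles) and 4 other tested Irf and Stat genes (grey squares), sorted by the change. The intervals of Irf7, Irf9 and Stat2 lie above 0 and those of the other 9 genes include 0.

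The order of the members' levels differed between the groups. In vehicle hearts Stat3 was highest, followed by Irf1, Irf3, Irf9, Irf2, Stat2, Irf7 and Irf8, with ranges of neighbours overlapping from Irf1 to Irf2 and between Irf7 and Irf8. In Paro/Neo hearts the order was Stat3, Irf9, Irf7, Irf1, Irf3, Irf2, Stat2 and Irf8, and all neighbours overlapped except Stat2 and Irf8. Among all features of the table, the mean TPM of Irf7 stood at percentile 48.8 in vehicle and 77.2 in Paro/Neo hearts, and that of Irf9 at 66.2 and 81.9.

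As a share of the summed TPM of the 6 Irf members, Irf7 made up 5.52, 8.41 and 7.90% in vehicle hearts and 29.5, 20.6 and 17.0% in Paro/Neo hearts. Irf9 made up 18.5, 20.2 and 23.0% in vehicle and 32.03, 25.7 and 32.3% in Paro/Neo hearts. The mean share of Irf3 was 23.95% in vehicle and 13.4% in Paro/Neo hearts, at a near equal level, since the sum was 62.5 to 65.1 TPM in vehicle and 95.98 to 133.5 TPM in Paro/Neo hearts. Among the treated hearts, the share of Irf7 was largest in replicate 1 and smallest in replicate 3, the heart with the largest sum.

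**Figure D3:**
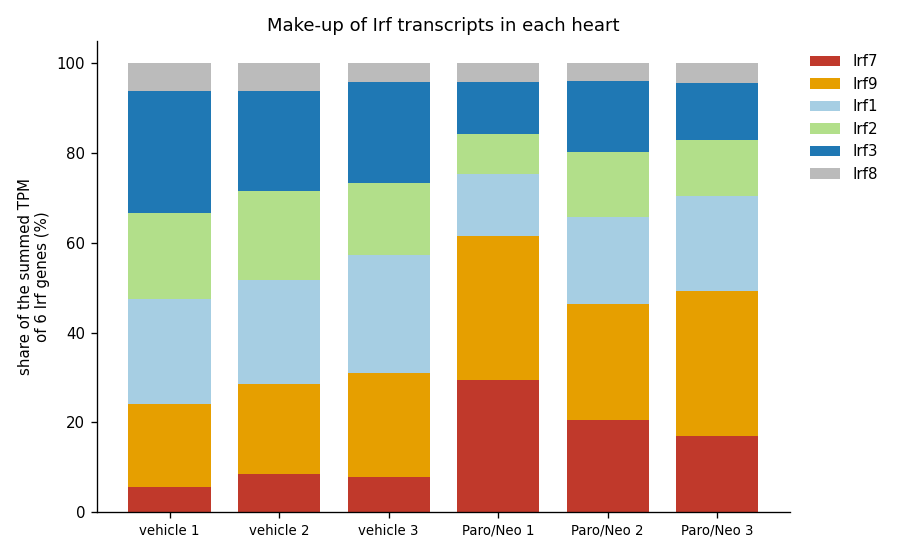
Share of the summed TPM of the 6 Irf members (vertical axis, %, stacked to 100) in each of the 6 hearts. The Irf7 band (bottom, red) is 5.52 to 8.41% in vehicle and 17.0 to 29.5% in Paro/Neo hearts, and the Irf3 band (dark blue) is narrower in every Paro/Neo heart than in any vehicle heart.

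Differences in response between members were tested within hearts, on 10 pairs, as the per-library difference of log2(TPM + 1) (exact permutation test over hearts, two-sided, Benjamini-Hochberg over the 10 pairs). With 3 hearts against 3 the smallest p this test can give is 0.10, so no pair could pass. The difference between the group means of this quantity was, for Irf7 against Irf3, 2.22, against Stat3 2.40, against Irf2 2.03, against Irf8 1.84, against Irf1 1.83, against Stat2 1.34 and against Irf9 0.89 on the log2 scale (exact p = 0.10, adjusted 0.111 for each). It was 0.45 for Irf9 against Stat2 and 1.05 for Stat2 against Stat3, at the same p, and 0.20 for Irf1 against Irf2 (exact p = 0.30, adjusted 0.30). With 1 library left out, the Irf9 to Stat2 value ranged from 0.26 (without Paro/Neo replicate 1) to 0.60, and the Irf1 to Irf2 value from 0.12 (without vehicle replicate 2) to 0.34 (without vehicle replicate 3), with 0.12 also without Paro/Neo replicate 3. These values share the libraries and the members, and 9 of the 10 pairs had separate groups.

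The genes whose log2(TPM + 1) followed a member most closely over the 6 hearts were listed by Pearson r, as a description, since the points share libraries and groups. For Irf7 these were Ccl12 (r = 0.996), Apol9b (0.996), B2m (0.994), Slfn8 (0.988) and Ifit1 (0.988). Apol9b averaged 0.103 TPM under vehicle and reached the filter on low values only through the treated hearts. A higher treated mean was thus fixed for it, and its r with Irf7 is no support. For Irf9 they were H2-Aa (0.997), Ccl8 (0.997) and Gbp3 (0.994). Stat2 was nearest to Ggnbp2 (0.989), Sp100 (0.986) and Sfxn2 (0.985), Irf1 to Srsf1 (0.995), Gbp2 (0.988) and Mef2a (0.983), and Irf8 to Tnip3 (0.985), Whamm (0.981) and Zscan21 (0.978). Irf2 was nearest to Ahr (0.993), Ephx1 (0.989) and Sipa1l2 (0.983), Irf3 to Osr1 (0.987), Oat (0.985) and Pik3c3 (0.984), and Stat3 to Ndrg1 (0.998), Pogz (0.998) and Prr14 (0.997). Between members r was 0.945 for Irf7 and Irf9, 0.928 for Irf9 and Stat2, 0.89 for Irf1 and Stat2 and -0.605 for Irf7 and Stat3.

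Genes that act upstream of the members were near their vehicle levels as lists. Of 16 receptors and Jak kinases, 10 had a higher mean and 6 a lower one (median 0.05), and 0 passed by limma, with 1 at an unadjusted p under 0.05: Il10rb, a shared receptor chain, with mean levels of 205 TPM under vehicle and 241 TPM under Paro/Neo (adjusted p = 0.59). Ifngr1, the ligand-binding chain of the interferon gamma receptor, averaged 76.5 and 67.0 TPM (adjusted p = 0.772). Of 21 activators of Irf3 and Irf7, 11 were higher and 10 lower (median 0.004), and 0 passed by limma. At an unadjusted p under 0.05, 3 were higher and 2 lower, against 3.24% and 4.37% of all features. Ifih1, a cytosolic RNA sensor, averaged 5.22 and 8.49 TPM (adjusted p = 0.397), and Azi2, an adaptor of the kinase Tbk1, 24.6 and 37.9 TPM (adjusted p = 0.503). Ddx58 was the other higher one, at 7.11 and 9.23 TPM (adjusted p = 0.577). The 2 lower ones were Mavs, the mitochondrial adaptor of RNA sensors (37.7 and 29.5 TPM, adjusted p = 0.549), and Tmem173, the adaptor of DNA sensing known as STING (7.89 and 5.74 TPM, adjusted p = 0.59). Of 16 cytokine ligands listed, 10 were in the table and 2 were high enough to test, Ctf1 (6.09 and 7.79 TPM) and Cntf (2.58 and 2.42 TPM). All the type I interferon genes of that list are absent from the deposited features, so no level can be given for them. Transcripts of interferon gamma (Ifng) were at 0 to 1 inferred read per library and those of Il6 at 0 to 4.

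Negative regulators were mixed. Of 16 tested, 6 were higher and 10 lower, with a median of -0.08. At an unadjusted p under 0.05, 1 was higher and 2 lower, against 3.24% and 4.37% of all features. Usp18, which encodes an enzyme that dampens interferon receptor signalling, passed upward, at 2.48, 3.30 and 4.13 TPM in vehicle and 12.3, 8.69 and 11.9 TPM in Paro/Neo hearts (log2 change 1.48, SE 0.19, adjusted p = 0.0408 by limma). With 1 library left out it passed without Paro/Neo replicate 2 and in 0 of the other 5 fits. Socs3, a feedback inhibitor of Stat3 signalling, was at 3.41, 3.05 and 2.99 TPM in vehicle and 1.59, 2.03 and 2.04 TPM in Paro/Neo hearts and did not pass (adjusted p = 0.359).

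Target genes of ISGF3 lay above their vehicle mean throughout. Of 31 tested, 31 were higher, 29 at an unadjusted p under 0.05 and 28 with separate groups, against 3.24% and 6.04% of all features. The median log2 change was 0.73, against -0.02 over all features. Past the threshold were Ifit1, an RNA-binding effector (5.14 to 35.1 TPM, adjusted p = 0.0113), Zbp1, a sensor of left-handed nucleic acids (0.422 to 3.26 TPM, 4 to 9 inferred reads per vehicle library, adjusted p = 0.0151), and Rtp4 (11.1 to 27.4 TPM, adjusted p = 0.0426, limma). Zbp1, Oas1a and Oasl1 were under 1 TPM in every vehicle heart and reached the filter on low values only through the treated hearts, so that a higher mean was fixed for them and Zbp1's call is no support. The other 28 were all higher, 26 at an unadjusted p under 0.05 and 25 with separate groups, with a median of 0.73, and 2 of them passed. With any 1 library left out, all 31 were still higher, and 1 to 5 passed. These counts include Zbp1, Oas1a and Oasl1, and Zbp1 was among those that passed without vehicle replicate 2 and without Paro/Neo replicate 2. In Paro/Neo replicates 1, 2 and 3 the median deviation from the vehicle mean was 0.71, 0.56 and 0.81, and in vehicle hearts -0.11 to 0.06.

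Of 28 targets of Irf1 and interferon gamma, 25 were higher and 3 lower, with a median of 0.99. Cxcl10 reached the filter only through the treated hearts, and without it 24 of 27 were higher, with a median of 0.98. Past the threshold were B2m, the invariant subunit of class I molecules (859 to 2631 TPM, adjusted p = 0.0202), Gbp3, a guanylate-binding protein (11.05 to 35.003 TPM, adjusted p = 0.0327), and H2-K1, an MHC class I heavy chain (83.6 to 219 TPM, adjusted p = 0.0408, limma). With 1 library left out, 0 to 5 passed by limma, with 0 without vehicle replicate 1, vehicle replicate 2 or Paro/Neo replicate 3. In those 3 fits 16 to 18 were at an unadjusted p under 0.05, as were 703 to 1142 of all 12409 features. The median deviation was 0.84, 0.67 and 1.42 in Paro/Neo replicates 1, 2 and 3.

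Of 25 targets of Stat3, 6 were higher and 19 lower, with a median of -0.25. By limma 0 passed, with 3 lower at an unadjusted p under 0.05, against 4.37% of all features. Steap4, a metalloreductase, averaged 43.8 TPM ± 2.48 under vehicle and 28.05 TPM ± 6.85 under Paro/Neo (SD, n = 3 each; adjusted p = 0.397). Socs3, described above, also belongs to this list. The 3 treated hearts differed, with median deviations of -0.60, -0.16 and -0.05 for replicates 1, 2 and 3. Without replicate 1 the split was 11 higher and 14 lower, with a median of -0.07.

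**Figure D4:**
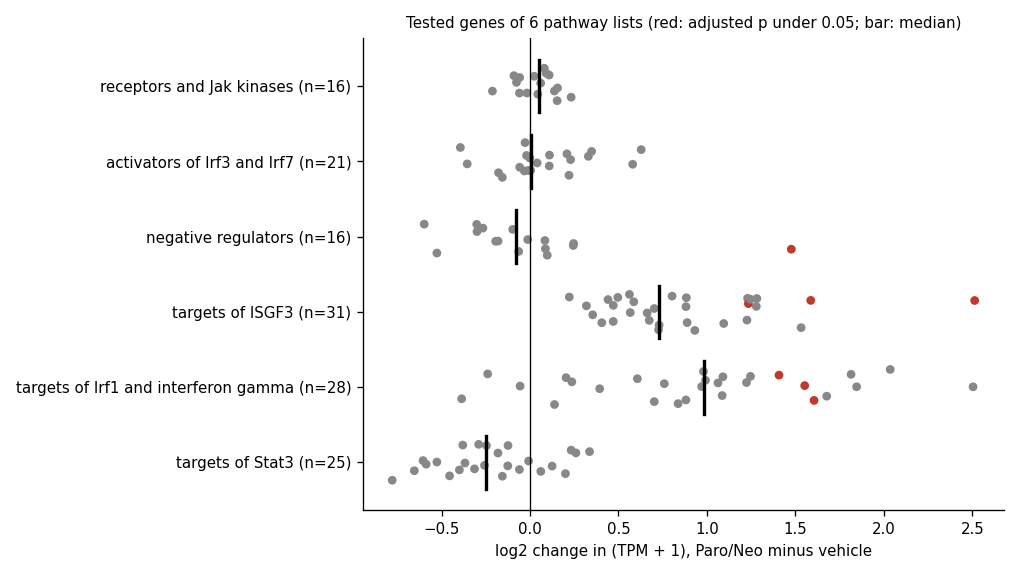
Log2 change in TPM + 1, Paro/Neo minus vehicle (horizontal axis), of each tested gene in 6 lists of the pathway, with list medians as bars and genes past the threshold in red. The 31 targets of ISGF3 lie right of 0 with a median of 0.73, while receptors (0.05) and activators (0.004) centre near 0 and Stat3 targets at -0.25.

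Promoters of the genes tested gave a view of the ISRE core beyond the members. Of 9205 tested genes with a promoter window, 289 held an ISRE core, and 57.4% of these were higher, with a median log2 change of 0.03. The groups were separate upward in 15.6% of them, against 6.28% of all genes with a window. For the 678 genes with a GAS core the share was 7.52% and the median -0.02. Of these, 1 passed upward, Ifi202b, with the core 148 to 140 bases before its start. Any genes that reached the filter on low values only through the treated hearts were kept in these shares, and for them separation upward was fixed. Whether the cores bear on the changes was not tested. Of 9 genes with a window that passed upward, B2m, Gbp3 and Ifit1 held ISRE cores, all shown here with 6 flanking bases (RefSeq, GRCm38.p6; for Gbp3 and Ifit1 the match is on the reverse strand). They lie at chr2:122147542-122147563 for B2m, chr3:142559993-142560014 and chr3:142559999-142560020, which overlap, for Gbp3, and chr19:34640779-34640800 and chr19:34640798-34640819 for Ifit1.
B2m: gaacatGAAACTGAAAatggga
Gbp3 first: acacagTTTCAGTTTCtatttc
Gbp3 second: tttcagTTTCTATTTCccagat
Ifit1 first: cttcagTTTCACTTTCcagtct
Ifit1 second: tctcagTTTCAGTTTCtcactg

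Markers of cell types that a ventricle sample can hold were summed in TPM. Cardiomyocyte markers were at 147386 to 152733 TPM in vehicle and 134665 to 164735 TPM in Paro/Neo hearts, and all 8 were above 0 in every library, as the tissue label states. Macrophage and monocyte markers, 13 of 14 in the table, summed to 597 to 717 TPM and 705 to 744 TPM. Of these 13, 12 were higher, 0 passed by limma with 1 at an unadjusted p under 0.05, and the median log2 change was 0.18. Neutrophil markers summed to 7.52 to 18.1 and 23.1 to 25.02 TPM, T and NK cell markers to 2.11 to 4.62 and 4.85 to 12.2 TPM, dendritic cell markers to 5.49 to 5.67 and 4.36 to 6.26 TPM, and B cell markers to 1.31 to 3.15 and 2.63 to 3.05 TPM. S100a8 and S100a9 made up most of the neutrophil sum. Of the 9 T and NK cell markers in the table, 1 (Gzma) was high enough to test. Endothelial markers summed to 489 to 566 and 377 to 497 TPM, and fibroblast markers, of which Dcn makes up most, to 2206 to 2261 and 1885 to 2187 TPM. All 6 fibroblast markers had a lower mean, 3 at an unadjusted p under 0.05 and 4 with separate groups. By limma 0 of them passed, and the median was -0.54, or -0.28 without Paro/Neo replicate 1. Over all features 3.24% were higher and 4.37% lower at an unadjusted p under 0.05, and 8.22% had separate groups downward. Of 6 endothelial markers 5 were lower (median -0.27, 1 at an unadjusted p under 0.05), and the 2 neutrophil markers tested were both higher (median 0.88, 1 at an unadjusted p under 0.05), with 0 past the threshold by limma in either list. No marker was at 0 in all libraries, and the part of these cell types in the members' values was not tested.

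**Figure D5:**
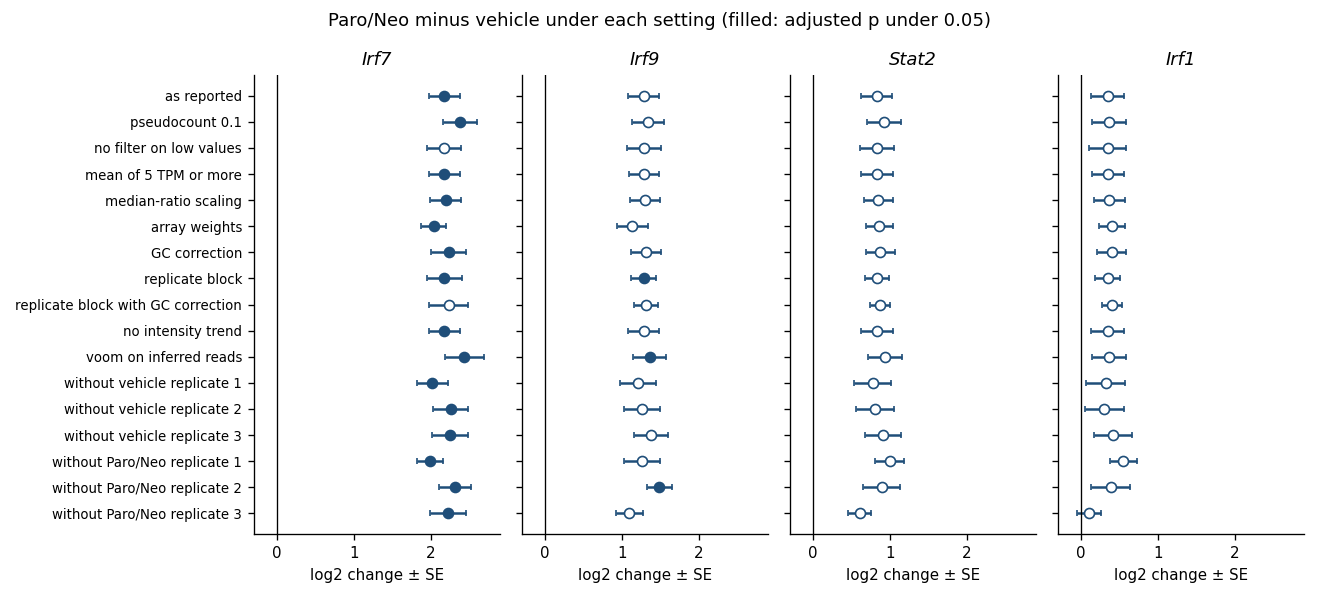
Log2 change ± SE (horizontal axis), Paro/Neo minus vehicle, of Irf7, Irf9, Stat2 and Irf1 under the settings named on the vertical axis, filled where the adjusted p is under 0.05. Irf7 stays between 1.99 and 2.44, Irf9 is filled in 3 of the plotted settings, the reported one not among them, and Irf1 is at 0.11 without Paro/Neo replicate 3.

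Across the settings plotted for Irf7, Irf9, Stat2 and Irf1, all 4 genes had a higher mean in Paro/Neo hearts. Irf7 passed in all plotted settings but 2, those without a filter on low values and with a replicate block combined with a GC correction. Fits with the filter applied anew are not plotted. In these, Irf7 missed the threshold in 3 of the 6, as given above, and Irf9 passed without Paro/Neo replicate 2 (adjusted p = 0.0303 by limma).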

How the data were processed

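RNA of 6 ventricle samples was read at 76 bp from stranded mRNA libraries, per the labels' protocols. The authors deposited TPM values, 1 column per library. The submitters' processing notes name FastQC 0.11.5, STAR 2.5.3a, featureCounts, Subread, edgeR and mm10 without saying what each did, and the strand setting of the counting is not given in the sources used here. Because TPM values are not counts, limma 3.58.1 (R 4.3.3; eBayes with an intensity trend, two-sided) was fitted to log2(TPM + 1) of all 6 libraries over the 12409 of 18158 features at 1 TPM or more in at least 3 libraries, with Benjamini-Hochberg adjustment over all and a threshold of 0.05. The fit was tested on simulated data. Inferred reads are lower estimates from the steps of the TPM values. Coordinates are from GENCODE M21 (GRCm38) by symbol.

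The members and gene lists were chosen with earlier results of these data known. Named genes were all members, the other Irf and Stat genes (2 of which are not reported here), from each list up to 4 genes that passed, or the genes of smallest p until 2 were named, and the genes nearest to each member by Pearson r, 5 for Irf7 and 3 for the others. Ifng, Il6, Mavs, Tmem173, Ddx58, Ifi202b, Oas1a, Oasl1, Cxcl10, Dcn, S100a8, S100a9, Gzma and genes overlapping a member were named beyond that rule, after their values were seen. Groups follow the labels' treatment. The labels number replicates 1 to 3 in the titles, while the descriptions number the Paro/Neo libraries 2 to 4, and titles were used. Alternatives covered the pseudocount, filters, scaling, array weights, GC correction, a replicate block, the intensity trend, voom on inferred reads and each library left out. Applying the filter anew with a library left out, and list counts without each library or without genes that reached the filter through 1 group only, were added after seeing the data.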

Additional observations from a re-analysis of the deposited data

How the results depend on the processing

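With 1 member past the threshold as reported, the count was 0 without a filter on low values, 2 with voom on inferred reads, and 1 to 2 with each library left out (0 to 2 with the filter applied anew). For all features the count was 17 as reported, 1 without a filter (limma; 1354 at an unadjusted p under 0.05), 26 with array weights, 9 without the intensity trend, and 5 to 27 with a library left out (0 to 27 over both ways of filtering). Without Paro/Neo replicate 1 and with the filter anew the count was 0 by limma, with 894 features at an unadjusted p under 0.05. Without vehicle replicate 1 it was 5, or 1 with the filter anew, and without Paro/Neo replicate 3 it was 9 or 2, without vehicle replicate 2 10 or 9, and without vehicle replicate 3 or Paro/Neo replicate 1 it was 6 over the same features. Irf7 had adjusted p 0.169 without a filter, and with the filter anew 0.0557, 0.0504 and 0.0621 without vehicle replicate 1, Paro/Neo replicate 1 and Paro/Neo replicate 3. Irf9 passed with voom (0.0485) and without Paro/Neo replicate 2 (0.027). Small changes turned sign for Irf2 and Irf3. Irf2 ranged from -0.0188 (without Paro/Neo replicate 3) to 0.354 (without Paro/Neo replicate 1) with a library left out. Irf3 was at 0.0181 with the GC correction, alone or with the block, and ranged from -0.137 (without Paro/Neo replicate 3) to 0.0744 (without Paro/Neo replicate 1), at 0.0455 without vehicle replicate 1. Fits with a library left out rest on 5 hearts, those without a filter on 18158 features and those with the filter anew on 12268 to 12296, and otherwise the cause was not tested. Irf8 had no value under the filter of a mean of 5 TPM. None of the 10 within-heart differences changed direction.

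With a replicate block the counts were 2 members (Irf7 and Irf9, adjusted p 0.0275 and 0.0455 by limma) and 27 features, and with the block and GC correction 0 members (limma, Irf7 adjusted p 0.0807) and 5 features. Deviations of libraries with the same title number correlated at -0.05, -0.04 and -0.12 over features. With 3 libraries a group, this check cannot decide whether the numbers pair the samples, and no pairing was assumed. At 3 hearts a group, and 39 to 107 reads for Irf8, small changes were not detectable.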
